A study of Homo sapiens with 60 samples.

Results

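Sibjeondaebo-tang is a multi-herb tonic formula of East Asian medicine, and Astragali Radix, the dried root of Astragalus, is one of its ingredients. The comparison described here set the formula at its high dose against this single herb at its medium dose in SW1783 cells, an established human astrocytoma line, and so addressed what the whole formula does beside 1 herb that it contains. By their labels, 3 libraries came from cells given the ethanol extract of Sibjeondaebo-tang at 500 µg/mL for 24 h, called the formula below. Another 3 came from cells given the ethanol extract of Astragali Radix at 44 µg/mL for 24 h, called the herb. These are 6 of the 60 libraries of the series, chosen by extract and dose alone. The herb's dose was 8.8% of the formula's by weight of extract, and how much of the herb the formula's extract holds is not given in the sources used here, so the doses are not matched for it. Vehicle cells, 3 libraries at 24 h, received DMSO, at 0.1% by the sample labels and at 2% by the text on the series. No label says whether the replicates came from separate cultures, so each p-value below measures only the spread between libraries within groups, which may be technical. That spread was pooled over all groups in the fit and not taken from the groups compared alone.

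The sample names of the formula carry the code 15 and those of the herb the code 13, and no label says what these codes stand for. In the formula against the herb, code and treatment therefore cannot be told apart. The same codes separate a pair of low-dose groups, Sibjeondaebo-tang at 20 µg/mL with the code 15 and Cinnamomi Cortex, cinnamon bark, at 20 µg/mL with the code 13, with 3 libraries each at 24 h. Their difference is used below as a gauge of the code, although it also holds whatever these low doses did to the cells. Vehicle sample names carry the code F1, which no extract library shares. Against vehicle, code and treatment thus cannot be told apart either, and the gauge does not cover that code.

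Both extracts are complex mixtures, and the genes described here report on a few well-known sensing systems. NRF2 is a transcription factor that electrophilic and oxidising compounds release from its inhibitor KEAP1, after which it drives heme oxygenase (HMOX1), the quinone reductase NQO1 and the enzymes of glutathione synthesis. Metallothioneins such as MT2A are small cysteine-rich proteins that bind zinc and copper, and the metal sensor MTF1 switches them on. ID proteins such as ID3 block basic helix-loop-helix transcription factors and are the classic direct targets of bone morphogenetic protein (BMP) signalling. YAP and TAZ are coactivators that respond to cell tension and contact and, with the TEAD factors, drive CCN1, CCN2 and ANKRD1.

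The formula's libraries held 23953568 to 32055585 counts, the herb's 25157185 to 32802531 and the vehicle's 24212198 to 26167505. Mitochondrial transcripts took 5.51 to 6.78% of counts in formula libraries, 4.97 to 5.03% in herb libraries and 7.55 to 8.04% in vehicle libraries. The formula libraries spread more widely, with a chi-square per degree of freedom of 6.87 to 7.17 between pairs, against 3.15 to 3.65 for herb and 2.16 to 3.03 for vehicle libraries. A spread pooled over all groups may thus understate that of the formula libraries. All 9 libraries were high in VIM (4137 to 5612 CPM, library-size-scaled counts normalised by TMM), CD44 and GJA1, and GFAP, S100B, AQP4, ALDH1L1, SOX2 and FABP7, which mark differentiated astrocytes or glial stem cells, were at or near 0. Summed markers of other cell types lay at 2.58 to 3.82 CPM in formula, 2.89 to 3.38 CPM in herb and 3.46 to 3.95 CPM in vehicle libraries for epithelium. For leukocytes, mostly PTPRC, the sums were 6.29 to 7.42, 7.46 to 8.22 and 9.07 to 9.22 CPM in the same order. The neuron sum, mostly TUBB3, SYT1 and SNAP25, was 142 to 153.7, 137 to 140.3 and 164.4 to 174.7 CPM, and the endothelial sum, mostly KDR, 31.2 to 32.9, 27.2 to 27.8 and 29 to 33.4 CPM. Their part in the results was not tested.

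At an edgeR adjusted p below 0.05, 4129 of 17610 genes (23.4%) differed between formula and herb, 2109 higher (12%) and 2020 lower (11.5%) in formula cells. The median size of the difference among called genes was 0.22 on the log2 scale, and 46 genes were at least 2-fold higher and 56 at least 2-fold lower. Of the 3632 called genes with a mean of 5 CPM or more in either group, 5 were at least 2-fold higher and 1 at least 2-fold lower, and 2 of these 5 had overlapping groups and are not named below. In the gauge of the code, 387 genes (2.2%) were called, 87 higher (0.494%) and 300 lower (1.7%) in the formula's low dose. The difference of both contrasts was itself called for 2867 genes (16.3%), 1556 higher (8.84%) and 1311 lower (7.44%). In the same direction in formula against herb and in that difference, 2206 genes (12.5%) were called, 1061 higher (6.02%) and 1145 lower (6.5%), which is 53.4% of the genes called between formula and herb. Of the 100 genes called both in formula against herb and in the gauge, 33 moved in the same direction and 67 in opposite directions.

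These counts depend on how the spread is estimated. The fit used 54 libraries of 18 groups and left out the herb's low dose (8.8 µg/mL). This choice was made because 2 of its libraries were known from earlier results of these data to stand apart. Mitochondrial transcripts took 1.38% of counts in 1 library of that dose against 4.97 and 5.93% in the other 2. With those 3 libraries added, 1125 of 17676 genes were called between formula and herb, 540 higher and 585 lower. Each of them was also among the 4129 and in the same direction. In this fit edgeR called 249 genes in the difference of both and 0 in the gauge. In the gauge, 950 genes reached an unadjusted edgeR p below 0.05, and DESeq2 on the 54 libraries called 595. With only the 6 libraries of the comparison 2669 genes were called, and without the formula's replicate 3 the count was 2684. The counts for each gene group below are therefore followed by the counts, higher and lower, in this 57-library fit. In the genes given library by library below, formula and herb overlapped for NQO1 and CRABP2 only, and of all genes 32.6% did not overlap between these 6 libraries (16.7% higher and 15.9% lower). Across genes, the difference of formula over herb correlated with GC content (Spearman rho 0.21 over 17489 genes, which are not independent replicates). Among the genes named below, a correction for gene length and GC content ended the calls of SCD, CHORDC1, ZMAT3, TNFAIP2, IGFBP6, TSC22D3, RPS2, NDUFV1, UQCRC1 and TUBB3 (edgeR adjusted p from 0.0624 to 0.295). Over all genes, 3205 of the 4129 calls were kept with it. Differences without a unit are on the log2 scale, formula over herb. The genes named below whose own call was lost in the 57-library fit are NQO1, FECH, SLC7A11, GSTM3, TALDO1, PGD, SQSTM1, SLC39A10, SMAD6, TIPARP, CHORDC1, HSP90B1, DNAJC3, SEL1L, ANGPTL4, HADHA, FADS1, SCD, MYLIP, VCL, RRM2, MCM5, CCNE1, AEN, TP53I3, ZMAT3, TNFAIP2, NFKB2, PHLDA1, ISG15, CTSD, GPNMB, GUSB, LAMC1, LOX, FN1, SERPINE2, IGFBP4, IGFBP6, ERRFI1, GLUL, TSC22D3, RPS2, RPL13, RPL3, RPL15, NDUFB10, NDUFV1, UQCRC1, UQCRQ, MT-CO3, MT-ND5, MT-ATP6, NES, SLC1A3, SLC1A2, TUBB3, KDR, MT1F, TEAD1 and CRABP2.

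The 4 marker genes differed in pattern, as the plot of levels by library shows. HMOX1 stood at 580.4, 560.5 and 647 CPM in formula libraries, 1068, 993 and 854 CPM in herb libraries and 86.0, 83.7 and 82.8 CPM in vehicle libraries. With both extracts it lay far above vehicle, and every formula library lay below every herb library. The difference of formula from herb was -0.71 ± 0.067 on the log2 scale (SE; edgeR adjusted p = 4.37e-11), and -0.71 ± 0.10 (SE; edgeR adjusted p = 2.24e-06) once the gauge was taken off. NQO1 was at 414, 394 and 440.2 CPM with the formula, 383, 399.7 and 374 CPM with the herb and 128, 128 and 126 CPM with vehicle, so the groups of formula and herb overlapped. Its difference of 0.11 ± 0.042 on the log2 scale (SE; edgeR adjusted p = 0.0471) was called only narrowly and missed the call without formula replicate 1 or 3 or herb replicate 1 or 3, at an edgeR adjusted p of 0.0794 to 0.347, and in the 57-library fit at 0.354. MT2A had 295, 271 and 256 CPM in formula, 201, 177 and 175 CPM in herb and 522, 456 and 451 CPM in vehicle libraries, so that both extracts lay below vehicle and the herb lowest, with a difference of 0.57 ± 0.088 on the log2 scale (SE; edgeR adjusted p = 2.33e-06). ID3 had 69.9, 59.9 and 72.4 CPM in formula, 120.5, 117 and 104 CPM in herb and 167, 178 and 170.5 CPM in vehicle libraries, again without overlap, but here the formula was lowest, with -0.76 ± 0.073 on the log2 scale (SE; edgeR adjusted p = 6.85e-11).

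**Figure D1:**
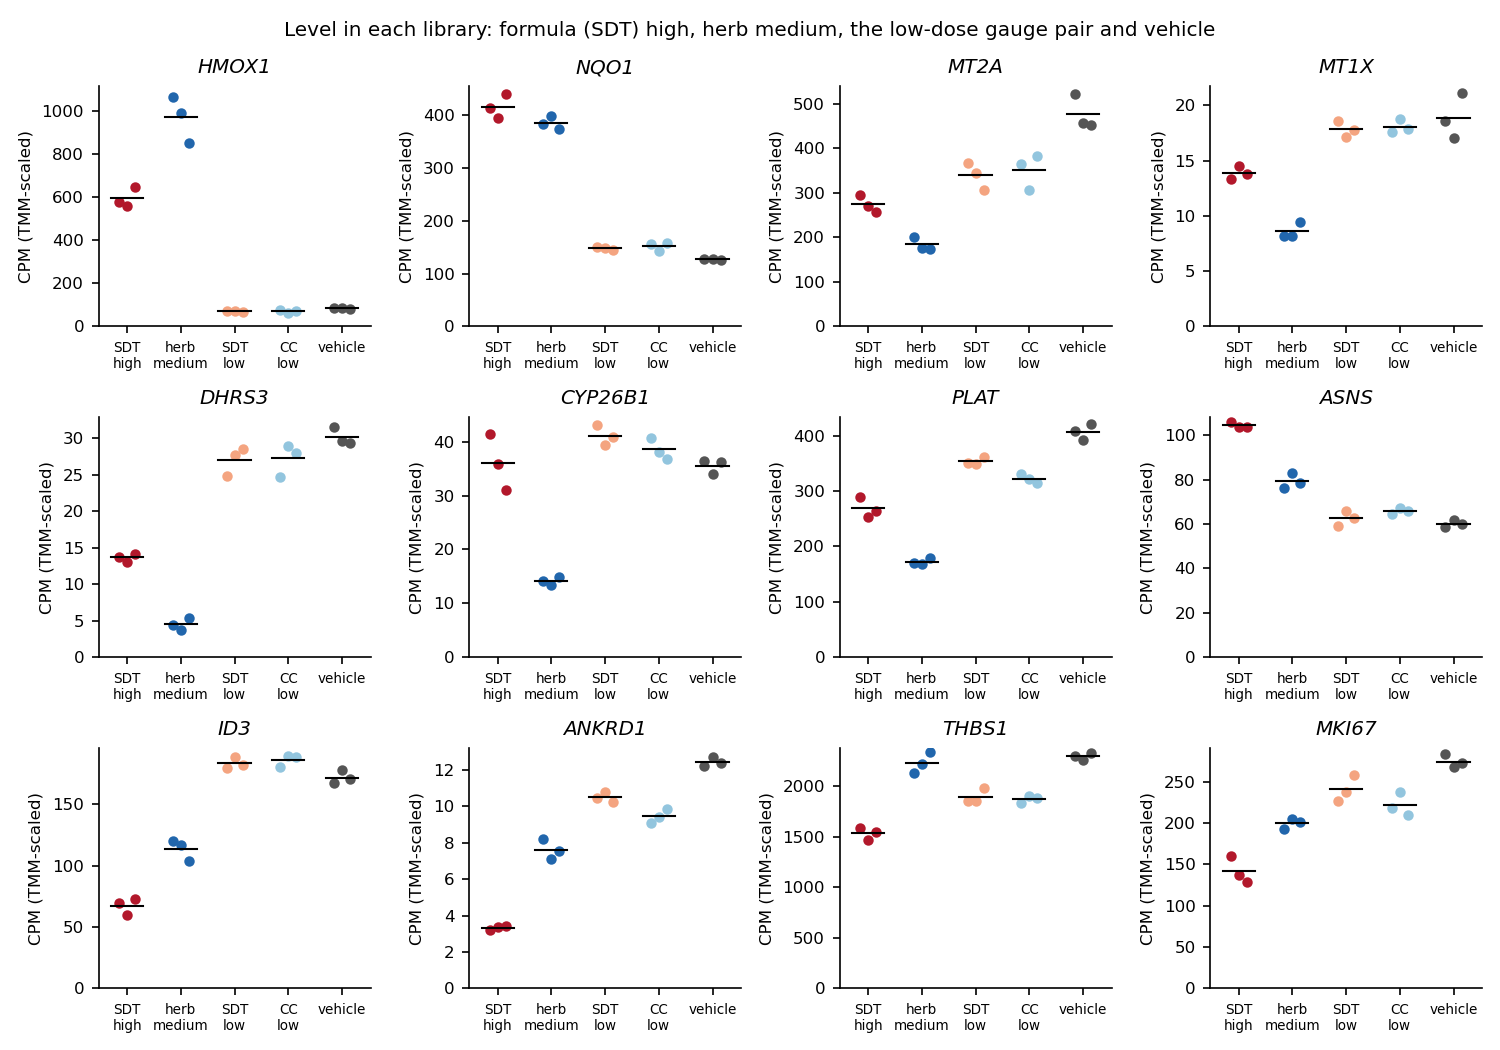
CPM (TMM-scaled) of 12 genes in each library of the formula's high dose (SDT high), the herb's medium dose (herb medium), the low-dose gauge pair (SDT low and CC low, Cinnamomi Cortex) and vehicle; each point is a library and each line a group mean. HMOX1 is lower with the formula than with the herb and far above vehicle in both, whereas MT2A, MT1X and DHRS3 are lowest with the herb and ID3, ANKRD1 and MKI67 lowest with the formula.

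Across doses of each extract, HMOX1 averaged 69.6 ± 2.60, 122 ± 2.52 and 596 ± 45.2 CPM at 20, 100 and 500 µg/mL of the formula (SD, n = 3 each). With the herb it averaged 972 ± 108 CPM at 44 µg/mL and 6302 ± 506 CPM at 220 µg/mL, against 84.2 ± 1.69 CPM with vehicle. The herb's medium dose thus gave more HMOX1 than any dose of the formula. Palmul-tang at 500 µg/mL, a formula which by recipe lacks Astragali Radix and Cinnamomi Cortex but shares the other herbs, gave 273 ± 12.4 CPM, and Cinnamomi Cortex at 500 µg/mL 367 ± 14.2 CPM. NQO1 averaged 148 ± 2.52, 194 ± 3.19 and 416 ± 23.0 CPM along the formula's doses. At the herb's doses it averaged 385 ± 13.2 and 389.9 ± 16.3 CPM, against 127 ± 0.914 CPM with vehicle. ID3 averaged 183 ± 4.42, 147 ± 2.97 and 67.4 ± 6.63 CPM along the formula's doses and 114 ± 8.93 and 40.1 ± 2.23 CPM at the herb's, against 172 ± 5.45 CPM with vehicle.

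**Figure D2:**
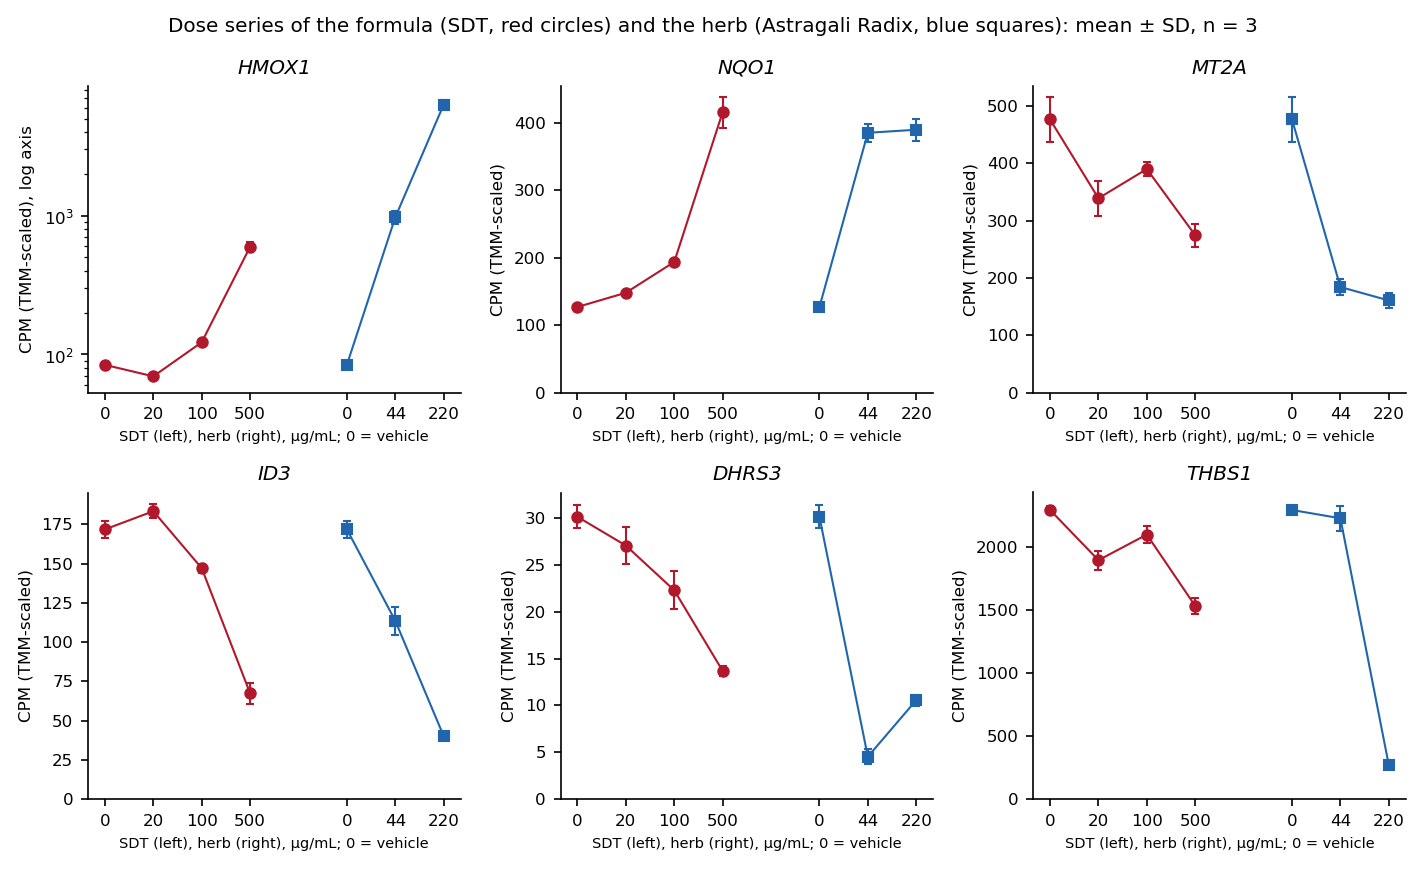
Mean CPM (TMM-scaled) with SD (n = 3) of 6 genes over the doses of the formula (red circles, 20, 100 and 500 µg/mL) and of the herb (blue squares, 44 and 220 µg/mL), each series starting at the same vehicle libraries (0); HMOX1 is on a log axis. HMOX1 and NQO1 climb from 20 to 500 µg/mL of the formula, although HMOX1 at 20 µg/mL lies below vehicle. The herb's 220 µg/mL, which is not compared further here, takes HMOX1 to 6302 CPM and THBS1 to 269.8 CPM.

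Most other called NRF2 targets differed in the opposite direction to HMOX1. In formula against herb, the list of heme and iron genes had 5 of 8 higher and 1 lower, with a median log2 difference of 0.16 beside 0.0069 over all genes. The 1 lower gene was HMOX1 itself. Higher genes included BLVRB, a biliverdin reductase, at 36.0, 38.1 and 40.9 CPM with the formula, 31.4, 29.1 and 26.4 CPM with the herb and 23.9, 23.4 and 20.4 CPM with vehicle. SLC48A1, a heme transporter, had 47.1, 43.4 and 45.3 CPM with the formula and 36.5, 36.5 and 37.5 CPM with the herb. Neither gene's groups overlapped, and the differences were 0.40 ± 0.074 on the log2 scale (SE; edgeR adjusted p = 4.90e-05) and 0.29 ± 0.049 on the log2 scale (SE; edgeR adjusted p = 9.50e-06). FECH, which inserts iron to complete heme, differed by 0.15 ± 0.045 on the log2 scale (SE; edgeR adjusted p = 0.0108), a call lost without formula replicate 3 (edgeR adjusted p = 0.19) or herb replicate 1 (0.0756). Without formula replicate 3 the list kept 2 genes higher and 1 lower, as it did in the 57-library fit.

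Glutathione and thioredoxin genes split as well. Of 11 glutathione and cystine genes, 5 were higher and 2 lower with the formula (1 and 1 in the 57-library fit). The lower ones were GCLC and SLC7A11. GCLC, the catalytic subunit of the enzyme that joins glutamate to cysteine, had 51.3, 51.2 and 51.8 CPM with the formula and 62.6, 59.5 and 58.1 CPM with the herb, a difference of -0.23 ± 0.046 on the log2 scale (SE; edgeR adjusted p = 2.67e-04). SLC7A11, which imports cystine, had 243, 279 and 209.6 CPM with the formula and 296, 295 and 293 CPM with the herb, a difference of -0.27 ± 0.060 on the log2 scale (SE; edgeR adjusted p = 5.73e-04), without overlap and with the formula's replicate 3 lowest. The higher ones included the glutathione transferase GSTM3 (0.27) and the conjugate pump ABCC3, at 106, 114 and 96.3 CPM with the formula and 89.4, 82.6 and 87.1 CPM with the herb, a difference of 0.29 ± 0.052 on the log2 scale (SE; edgeR adjusted p = 4.60e-05). Among 9 thioredoxin and NADPH genes, 2 were higher and 1 lower (0 and 1 in the 57-library fit, and 4 and 1 without formula replicate 1 or without herb replicate 2). TXNRD1, thioredoxin reductase, was the lower one at 439, 454 and 505 CPM with the formula and 546, 559 and 544 CPM with the herb, with -0.24 ± 0.040 on the log2 scale (SE; edgeR adjusted p = 1.61e-05). TALDO1 and PGD of the pentose phosphate pathway were higher by 0.20 and 0.14, and PGD missed the call without formula replicate 3 (edgeR adjusted p = 0.0568).

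Reductases that clear carbonyls made up most of the remaining NRF2 list, where 9 of 18 genes were higher and 2 lower (4 and 0 in the 57-library fit). AKR1C2, a hydroxysteroid and carbonyl reductase, had 17.5, 16.8 and 18.4 CPM with the formula, 12.9, 12.7 and 11.5 CPM with the herb and 5.68, 7.10 and 6.26 CPM with vehicle. AKR1C1, its close paralog, had 76.7, 79.5 and 83.9 CPM with the formula and 65.6, 67.7 and 59.9 CPM with the herb. The sequences of these paralogs are so alike that the counting may share reads between them. Their differences were 0.51 ± 0.067 on the log2 scale (SE; edgeR adjusted p = 1.19e-07) and 0.32 ± 0.062 on the log2 scale (SE; edgeR adjusted p = 1.32e-04), and both groups stood apart. PIR, the iron-binding protein pirin, was higher by 0.35, and SQSTM1, an autophagy receptor that also binds KEAP1, by 0.24. After subtraction of the gauge, 8 of the 18 were called higher and 0 lower.

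Set against vehicle, whose code no extract shares, the same lists were almost wholly higher with both extracts. These contrasts share the vehicle libraries. Of all genes, 20.7% were higher than vehicle with the formula and 17.9% with the herb. The heme and iron list had 8 of 8 higher with the formula and 8 of 8 with the herb. The glutathione list had 11 of 11 higher with the formula and 10 with the herb, the thioredoxin list 9 of 9 with each, and the reductase list 17 of 18 with each and 1 lower with each. HMOX1 lay 2.82 above vehicle on the log2 scale with the formula and 3.53 with the herb, AKR1C1 2.19 and 1.88, and SLC7A11 1.26 and 1.53.

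**Figure D3:**
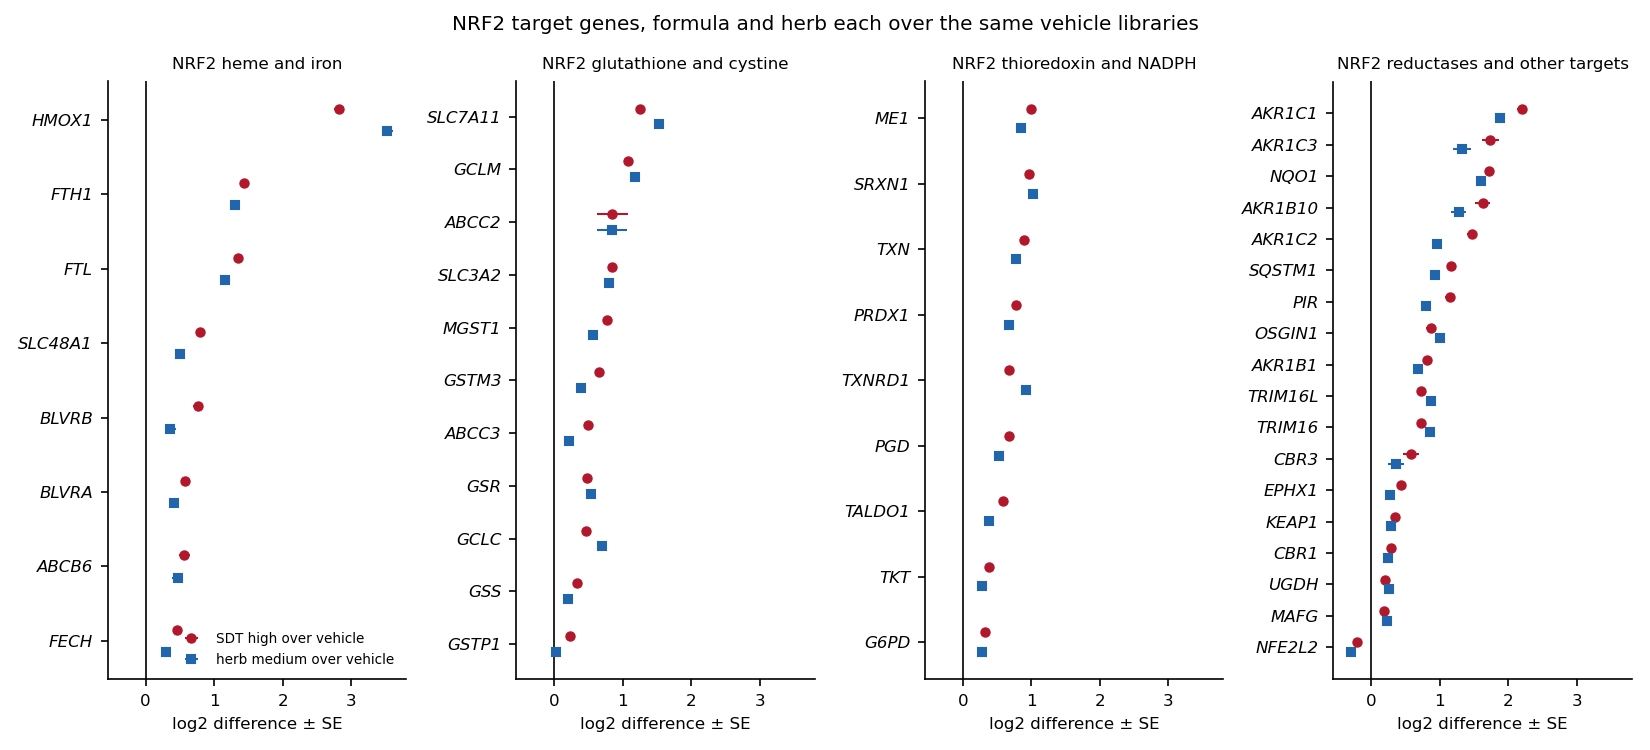
Log2 difference from vehicle with its SE for each tested gene of the 4 NRF2 lists, for the formula's high dose (red circles) and the herb's medium dose (blue squares), both over the same 3 vehicle libraries. HMOX1 sits at 2.82 and 3.53, with the herb further out, whereas the AKR1C genes, BLVRB and SLC48A1 are further out with the formula.

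Of 8 tested genes of metallothionein and zinc transport, 5 were higher and 1 lower with the formula (3 and 0 in the 57-library fit). Their median difference was 0.63, and it was 0.35 by DESeq2 and 0.34 with only the groups compared, each of which tested 6 of them. SLC39A10 and MT1E had smaller edgeR adjusted p-values than MT2A and MT1X, but MT1E has no entry among the promoter sequences used here. The sequences upstream of MT2A and MT1X are shown with matches to the core of the metal response element, the site of MTF1, in capitals. They are the 250 bases before the transcription start from RefSeq on GRCh38.p14, plus strand, at chr16:56608334-56608583 for MT2A and chr16:56682220-56682469 for MT1X.
MT2A: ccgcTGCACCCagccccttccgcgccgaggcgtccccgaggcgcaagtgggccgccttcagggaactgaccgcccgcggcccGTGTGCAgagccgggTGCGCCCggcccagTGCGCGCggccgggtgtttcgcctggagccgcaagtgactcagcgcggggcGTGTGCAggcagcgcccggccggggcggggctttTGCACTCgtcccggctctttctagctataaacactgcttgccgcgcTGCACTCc
MT1X: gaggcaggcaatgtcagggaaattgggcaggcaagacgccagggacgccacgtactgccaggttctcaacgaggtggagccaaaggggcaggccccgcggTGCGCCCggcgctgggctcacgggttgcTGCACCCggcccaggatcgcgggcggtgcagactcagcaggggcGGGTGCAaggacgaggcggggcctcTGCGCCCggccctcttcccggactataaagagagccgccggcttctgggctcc
The letters searched were TGCACNC and TGCGCNC on both strands. MT2A holds 7 matches and MT1X 4, whereas 24.8% of the 35116 RefSeq promoter windows of this length hold at least 1. Of the 8 tested genes 5 are in the sequence table, and 3 of these have a match. A match describes the letters in these windows only.

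The metallothionein differences were in level below vehicle. MT1X had 13.3, 14.5 and 13.8 CPM in formula, 8.15, 8.18 and 9.44 CPM in herb and 18.5, 17 and 21.1 CPM in vehicle libraries. MT1E had 12.4, 10.7 and 11.9 CPM in formula, 7.06, 6.03 and 6.11 CPM in herb and 30.6, 28.0 and 25.3 CPM in vehicle libraries. Formula and herb did not overlap for either gene and vehicle lay above both. The formula exceeded the herb by 0.69 ± 0.10 on the log2 scale (SE; edgeR adjusted p = 8.00e-07) for MT1X and by 0.85 ± 0.11 on the log2 scale (SE; edgeR adjusted p = 5.63e-08) for MT1E. Against vehicle, MT2A was at -0.80 with the formula and -1.37 with the herb. Over the list of 8 tested, 1 gene was higher and 3 were lower with the formula, 1 and 5 with the herb. Of all genes, 19.1% were lower than vehicle with the formula and 17.2% with the herb. MT1F, another list member picked after its values were seen and at under 1 CPM in all 9 libraries, was higher by 1.23 ± 0.43 on the log2 scale (SE; edgeR adjusted p = 0.0301), but the call was kept in 2 of the 6 fits that left out a library. Metallothionein genes are near-identical neighbours on chromosome 16, so reads may be split among them. SLC39A10, a zinc importer, ran the other way, at 60.5, 62.6 and 55.5 CPM with the formula and 72.3, 73.5 and 73.6 CPM with the herb, a difference of -0.30 ± 0.037 on the log2 scale (SE; edgeR adjusted p = 3.85e-08).

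**Figure D4:**
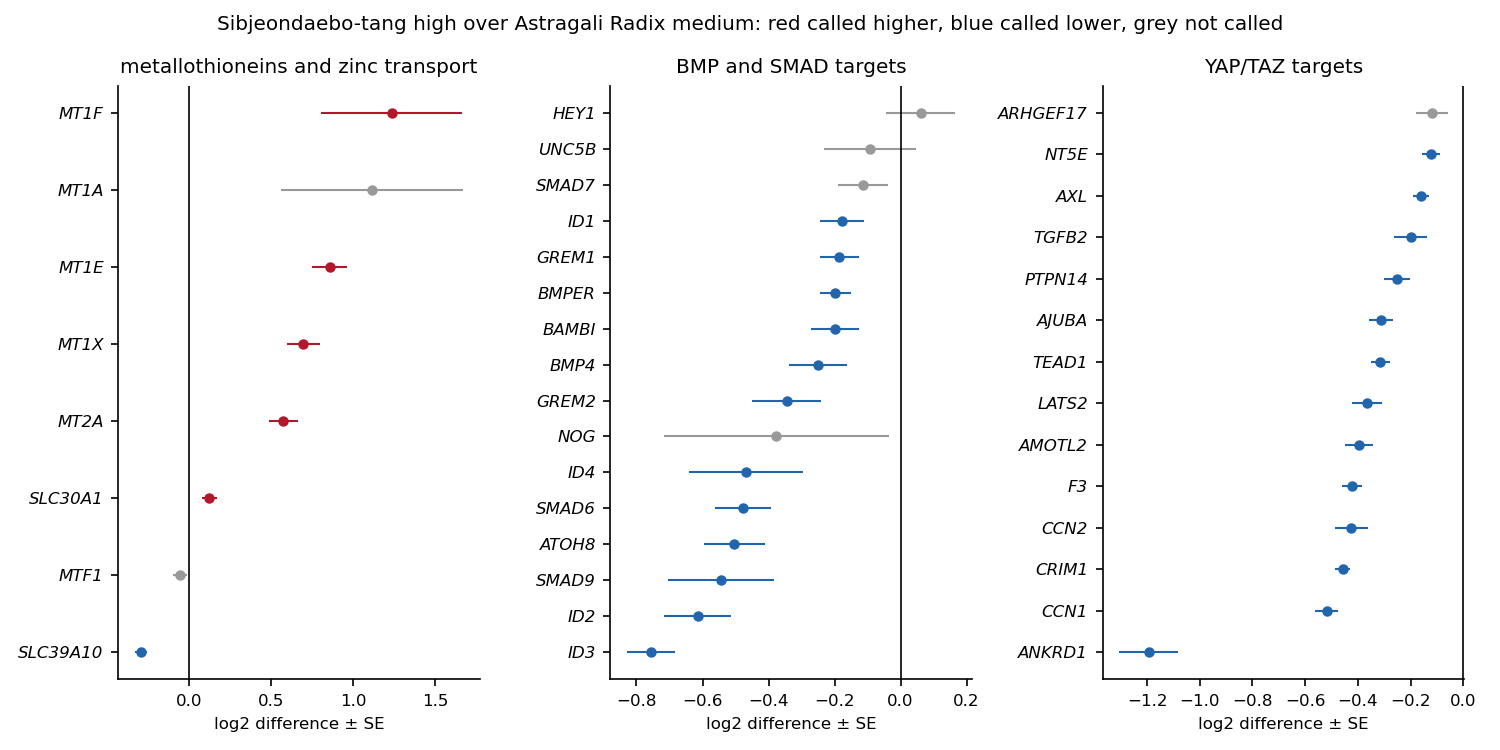
Log2 difference of formula over herb with its SE for each tested gene of 3 lists; red marks genes called higher, blue lower and grey not called at an edgeR adjusted p below 0.05. The metallothioneins lie right of 0 with SLC39A10 left of it, 12 of 16 BMP and SMAD targets and 13 of 14 YAP/TAZ targets are called lower, and ANKRD1 is the farthest out at -1.19.

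Among called genes at 5 CPM or more whose groups did not overlap, the 2 with the largest rises belong to retinoid handling. DHRS3, which reduces retinaldehyde back to retinol, had 13.8, 13.1 and 14.2 CPM in formula, 4.41, 3.79 and 5.38 CPM in herb and 31.6, 29.6 and 29.3 CPM in vehicle libraries. CYP26B1, which breaks down retinoic acid, had 41.4, 35.9 and 31.0 CPM in formula, 14.2, 13.5 and 14.9 CPM in herb and 36.5, 34.0 and 36.2 CPM in vehicle libraries. The herb lay far below vehicle for both, whereas the formula lay below vehicle for DHRS3 and overlapped it for CYP26B1. The differences of formula over herb were 1.58 ± 0.10 on the log2 scale (SE; edgeR adjusted p = 1.52e-16) and 1.34 ± 0.081 on the log2 scale (SE; edgeR adjusted p = 3.33e-17), and they stayed called when the gauge was subtracted, at 1.59 ± 0.12 (SE; edgeR adjusted p = 8.55e-13) and 1.25 ± 0.11 (SE; edgeR adjusted p = 1.43e-11). DHRS3, CYP26B1 and the retinoic acid receptor gene RARB are themselves known to be induced by retinoic acid. Other retinoid genes were looked up only after these values were seen and so carry no weight as a list. RARB was at 17.4, 17.3 and 19.0 CPM with the formula and 12.8, 11.1 and 12.8 CPM with the herb, higher by 0.55. STRA6, the cell-surface retinol transporter, was higher by 0.36 and ALDH1A3, which makes retinoic acid, by 0.38. CRABP2, which carries retinoic acid, had overlapping groups at 4.54, 3.29 and 3.89 CPM with the formula and 2.83, 3.31 and 2.55 CPM with the herb.

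Across doses, DHRS3 averaged 27.1 ± 1.94, 22.3 ± 2.03 and 13.7 ± 0.565 CPM along the formula's doses. It averaged 4.53 ± 0.798 and 10.6 ± 0.589 CPM at the herb's medium and high doses, against 30.1 ± 1.22 CPM with vehicle, so the herb's medium dose was the lowest of these. CYP26B1 stayed between 36.1 and 41.1 CPM over the formula's doses and lay at 14.2 ± 0.697 and 2.93 ± 0.699 CPM at the herb's.

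The remaining top rises came from several functions. THBD, thrombomodulin, an anticoagulant receptor, had 15.7, 15.9 and 16.1 CPM with the formula, 7.00, 5.95 and 7.39 CPM with the herb and 7.74, 9.03 and 6.52 CPM with vehicle, a difference from the herb of 1.22 ± 0.085 on the log2 scale (SE; edgeR adjusted p = 2.40e-15). IL1B, the cytokine interleukin 1 beta, had 8.99, 7.42 and 9.22 CPM with the formula, 4.72, 3.75 and 4.67 CPM with the herb and 4.78, 4.50 and 4.80 CPM with vehicle, with 0.95 ± 0.11 on the log2 scale (SE; edgeR adjusted p = 6.95e-09). For both, the formula lay above vehicle and the herb lay at vehicle's level. CYP2S1, a cytochrome P450, was higher by 0.94, with the herb below vehicle. CBS, which condenses homocysteine with serine, was higher by 0.93, at 11.3, 11.6 and 11.6 CPM with the formula and 7.39, 2.55 and 7.69 CPM with the herb, where replicate 2 was low. CBS has a near-identical copy in the genome, so its counts are uncertain. SLC7A8, an exchanger of neutral amino acids, was higher by 0.88 and CCN4, a secreted matricellular protein induced by Wnt signalling, by 0.86.

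By the same rule, the largest falls besides HMOX1, ID3 and ANKRD1 were in S1PR1, LMO7 and 3 members of repeated gene families. S1PR1, a receptor for sphingosine 1-phosphate, had 4.49, 5.05 and 5.16 CPM with the formula, 7.91, 8.30 and 8.70 CPM with the herb and 7.99, 7.61 and 8.88 CPM with vehicle, a difference from the herb of -0.75 ± 0.12 on the log2 scale (SE; edgeR adjusted p = 2.50e-06). LMO7, a protein of cell junctions and actin, had 70.1, 67.2 and 69.2 CPM with the formula, 109.6, 109 and 112 CPM with the herb and 138, 144 and 142 CPM with vehicle, a difference of -0.68 ± 0.040 on the log2 scale (SE; edgeR adjusted p = 2.85e-17). Both were lowest with the formula, and the herb overlapped vehicle for S1PR1 and lay below it for LMO7. PFN1P2 and HERC2P3 are pseudogenes and NPIPB5 has close paralogs, so their differences of -0.75, -0.75 and -0.73 are uncertain.

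BMP and SMAD targets were lower as a group. With the formula, 12 of 16 tested genes were lower than with the herb and 0 higher, at a median log2 difference of -0.30 (6 lower in the 57-library fit, and 7 lower without formula replicate 1 or herb replicate 2). After subtraction of the gauge 5 remained called lower, and with the length and GC correction 8 were called lower. ID2, a relative of ID3, had 8.05, 7.08 and 9.05 CPM with the formula, 12.3, 12.2 and 12.3 CPM with the herb and 21.4, 21.7 and 20.2 CPM with vehicle, and SMAD6, an inhibitory SMAD that the pathway itself induces, had 8.26, 7.27 and 7.14, 11.5, 9.54 and 10.2 and 13.7, 15.3 and 15.2 CPM in the same order. ATOH8, a helix-loop-helix factor, had 7.53, 7.67 and 9.05 CPM with the formula and 11.4, 10.8 and 12.1 CPM with the herb. None of the 3 had overlapping groups, and vehicle stood highest in each. The differences of formula from herb were -0.61 ± 0.10 on the log2 scale (SE; edgeR adjusted p = 1.06e-05) for ID2, -0.48 ± 0.085 on the log2 scale (SE; edgeR adjusted p = 3.67e-05) for SMAD6 and -0.50 ± 0.092 on the log2 scale (SE; edgeR adjusted p = 5.06e-05) for ATOH8. Against vehicle, the list had 1 gene higher and 12 lower with the formula and 3 higher and 12 lower with the herb. The shares lower over all genes were 19.1% and 17.2%.

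Of 14 tested YAP/TAZ targets, 13 were lower and 0 higher with the formula (9 lower in the 57-library fit), a median log2 difference of -0.34 and 13 called lower after subtraction of the gauge. The sequences of ANKRD1 and of CCN2, a textbook member chosen after its values were seen, are shown with GGAATG, the core of the TEAD site, in capitals. They are again the 250 bases before the start from RefSeq on GRCh38.p14, read on the minus strand, at chr6:131951373-131951622 for CCN2 and chr10:90921088-90921337 for ANKRD1.
CCN2: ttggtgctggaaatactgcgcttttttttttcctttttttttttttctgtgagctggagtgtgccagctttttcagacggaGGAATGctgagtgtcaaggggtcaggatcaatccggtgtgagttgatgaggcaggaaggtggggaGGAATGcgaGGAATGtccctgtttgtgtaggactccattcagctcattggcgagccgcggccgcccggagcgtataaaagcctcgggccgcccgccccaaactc
ANKRD1: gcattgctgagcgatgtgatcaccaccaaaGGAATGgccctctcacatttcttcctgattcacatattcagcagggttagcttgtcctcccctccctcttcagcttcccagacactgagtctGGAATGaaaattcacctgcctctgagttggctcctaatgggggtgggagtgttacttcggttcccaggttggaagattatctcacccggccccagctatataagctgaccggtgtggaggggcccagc
The letters GGAATG were searched on both strands. CCN2 holds 3 matches and ANKRD1 2, whereas 11.9% of the 35116 windows hold at least 1. Of the 14 tested genes 10 are in the table and 7 of these have a match.

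ANKRD1, an ankyrin-repeat protein of nucleus and sarcomere, had 3.21, 3.36 and 3.43 CPM with the formula, 8.22, 7.10 and 7.53 CPM with the herb and 12.2, 12.7 and 12.4 CPM with vehicle, so that the formula was lowest in every library and the difference from the herb was -1.19 ± 0.11 on the log2 scale (SE; edgeR adjusted p = 2.89e-11). CCN2, connective tissue growth factor, had 80.5, 77.0 and 80.2 CPM with the formula, 109, 104 and 105 CPM with the herb and 189.7, 195 and 185 CPM with vehicle, with -0.43 ± 0.062 on the log2 scale (SE; edgeR adjusted p = 8.49e-07). CCN1, a matricellular protein of the same family, had 395, 402 and 429.9 CPM with the formula, 577, 582 and 597 CPM with the herb and 364, 358 and 362 CPM with vehicle. For CCN1 the herb stood above vehicle and the formula closer to it, and formula and herb differed by -0.52 ± 0.044 on the log2 scale (SE; edgeR adjusted p = 1.46e-12). CRIM1, a transmembrane protein that binds BMPs, had 222, 227 and 226 CPM with the formula and 302, 311 and 316 CPM with the herb, with -0.46 ± 0.029 on the log2 scale (SE; edgeR adjusted p = 1.07e-16). F3, tissue factor, which starts blood clotting, was lower at -0.42. TEAD1, a list member also picked after its values were seen, encodes a factor that binds such motifs and had 178, 187 and 162 CPM with the formula and 219.8, 218 and 219.5 CPM with the herb, lower at -0.31. Against vehicle the list had 2 higher and 11 lower with the formula, and 4 higher and 4 lower with the herb. Over all genes, 20.7% were higher and 19.1% lower with the formula, and 17.9% and 17.2% with the herb.

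Of 16 SRF and actin genes, 9 were lower and 0 higher with the formula (4 lower in the 57-library fit, 13 with the length and GC correction), with a median of -0.16. TPM1, a tropomyosin, had 427, 386 and 441 CPM with the formula, 536, 535 and 542 CPM with the herb and 682, 691 and 689.7 CPM with vehicle. CALD1, caldesmon, had 367, 359 and 358 CPM with the formula, 433, 443 and 436 CPM with the herb and 492, 499 and 504 CPM with vehicle. In both the groups formed steps, formula lowest and vehicle highest, with formula differing from herb by -0.36 ± 0.044 on the log2 scale (SE; edgeR adjusted p = 1.99e-08) and -0.28 ± 0.027 on the log2 scale (SE; edgeR adjusted p = 7.05e-11). ACTA2, smooth muscle actin, was lower at -0.29 and VCL, vinculin of focal adhesions, at -0.15.

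Of 22 collagen and matrix genes, 13 were lower and 0 higher, with a median of -0.16 and 12 called lower after subtraction of the gauge. The 57-library fit called 1, THBS1, a thrombospondin that activates TGF-beta, which had 1584, 1463 and 1545 CPM with the formula, 2132, 2215 and 2332 CPM with the herb and 2293, 2258 and 2325 CPM with vehicle. Herb and vehicle overlapped, and the formula lay below both, with -0.54 ± 0.041 on the log2 scale (SE; edgeR adjusted p = 4.51e-14) from the herb. LOX, which cross-links collagen, was lower at -0.27, fibronectin FN1 at -0.24 and the laminin chain LAMC1 at -0.21. PLAT, tissue plasminogen activator, had 289, 253 and 264 CPM with the formula, 169, 168 and 179.8 CPM with the herb and 409, 392 and 421 CPM with vehicle, a difference from the herb of 0.64 ± 0.041 on the log2 scale (SE; edgeR adjusted p = 1.52e-16), and PLAU, urokinase, was higher by 0.31. SERPINE2, an inhibitor of both and of thrombin, was higher by 0.15. Over the 14 genes of activators, MMPs and TIMPs, 4 were higher and 2 lower (2 and 1 in the 57-library fit).

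**Figure D5:**
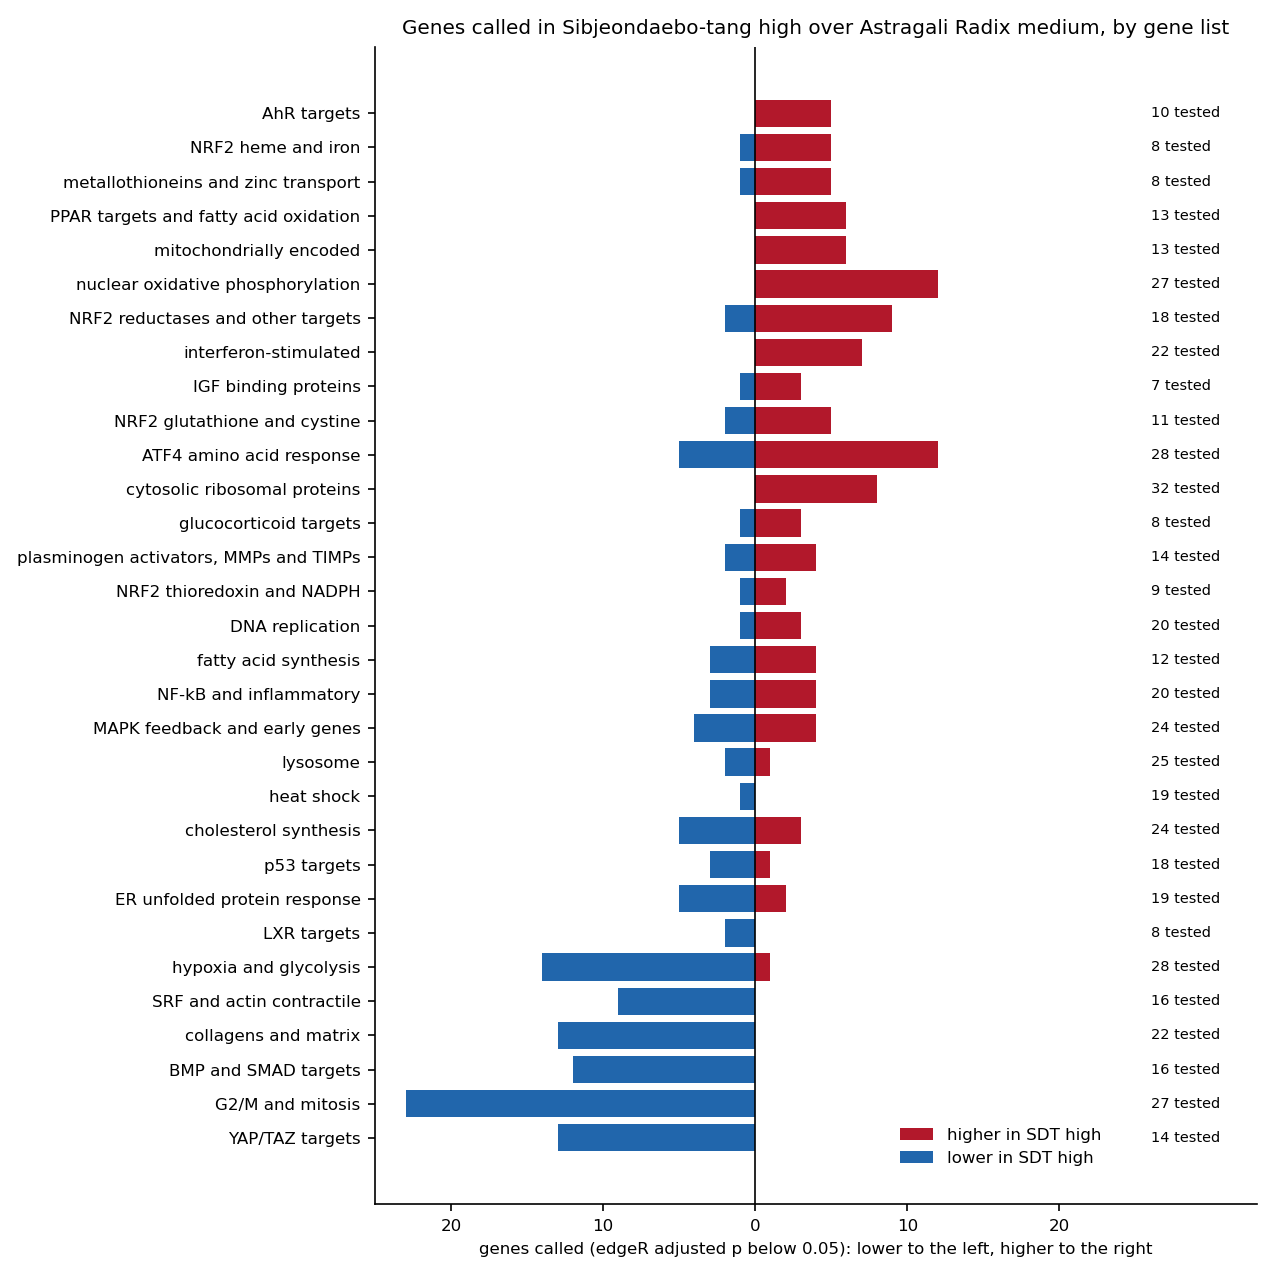
Number of genes called higher (red, to the right) or lower (blue, to the left) in formula over herb at an edgeR adjusted p below 0.05, for each list other than those of cell identity and cell type markers, ordered by the share called higher less the share called lower; the number tested is at the right. AhR, NRF2 and metallothionein lists lean to the right, and YAP/TAZ, G2/M, BMP and matrix lists to the left. After subtraction of the gauge, which is not drawn, the AhR list had 2 of 10 genes higher and 1 lower.

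Mitotic genes were mostly lower with the formula. Of 27 G2/M and mitosis genes, 23 were lower and 0 higher with the formula (14 lower in the 57-library fit), with a median of -0.22, and 17 were lower after subtraction of the gauge. MKI67, the proliferation antigen Ki-67, had 160.5, 137 and 129 CPM with the formula, 193, 205 and 201 CPM with the herb and 283, 268 and 272 CPM with vehicle. CENPF, a kinetochore protein, had 146, 139 and 133 CPM with the formula, 186, 189.6 and 199 CPM with the herb and 222, 224 and 212 CPM with vehicle. KIF23, a kinesin of the cleavage furrow, had 77.4, 74.7 and 78.9 CPM with the formula, 104, 96.9 and 100.4 CPM with the herb and 117, 114 and 116 CPM with vehicle. Each gene was lowest with the formula and highest with vehicle, the 3 groups without overlap, and formula differed from herb by -0.49 ± 0.051 on the log2 scale (SE; edgeR adjusted p = 3.44e-10), -0.46 ± 0.039 on the log2 scale (SE; edgeR adjusted p = 1.46e-12) and -0.39 ± 0.037 on the log2 scale (SE; edgeR adjusted p = 4.57e-11). CENPE, a kinetochore motor, was lower at -0.45. In bulk RNA, fewer cycling cells and less of each RNA per cell cannot be told apart. Against vehicle, 26 of the 27 were lower with the formula and 0 higher, and 18 lower and 1 higher with the herb. The shares lower over all genes were 19.1% with the formula and 17.2% with the herb.

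Of 20 genes of DNA replication, 3 were higher and 1 lower with the formula (1 and 0 in the 57-library fit), a share near the 23.4% called over all genes. MCM6, a subunit of the replicative helicase, was higher by 0.18 and MCM5, another, by 0.18. RRM2, the ribonucleotide reductase subunit, was lower at -0.20. Cyclin E, CCNE1, was higher by 0.18, but the call was lost without formula replicate 1 or 3 or herb replicate 2 or 3 (edgeR adjusted p from 0.0728 to 0.168). Of 18 p53 targets, 1 was higher and 3 were lower (0 and 1 in the 57-library fit), again a share near the 23.4% called over all genes. GADD45A, a stress-induced growth arrest gene, had 50.3, 52.7 and 56.9 CPM with the formula, 63.9, 69.8 and 65.6 CPM with the herb and 45.3, 49.7 and 46.1 CPM with vehicle, with -0.31 ± 0.056 on the log2 scale (SE; edgeR adjusted p = 3.29e-05) between formula and herb. TP53I3 was higher by 0.28 and the nuclease gene AEN lower at -0.18. ZMAT3 was lower at -0.14, a call lost without formula replicate 1 or 3 or herb replicate 3 (edgeR adjusted p from 0.0669 to 0.127).

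ATF4 is a transcription factor that is translated when amino acids run short and drives genes of their synthesis and uptake. Of 28 genes of this response, 12 were higher and 5 lower (8 and 0 in the 57-library fit), with a median of 0.094, and 10 were higher and 2 lower after subtraction of the gauge. PSAT1, the transaminase of serine synthesis, had 108, 106 and 104 CPM with the formula, 80.7, 78.8 and 77.7 CPM with the herb and 69.9, 74.0 and 74.5 CPM with vehicle. PHGDH, its first enzyme, had 47.3, 43.8 and 49.4 CPM with the formula, 34.0, 35.6 and 33.3 CPM with the herb and 32.3, 36.2 and 35.2 CPM with vehicle. In both the formula stood above the herb and vehicle in every library, with 0.42 ± 0.035 on the log2 scale (SE; edgeR adjusted p = 1.32e-12) and 0.45 ± 0.046 on the log2 scale (SE; edgeR adjusted p = 2.31e-10) over the herb. ASNS, asparagine synthetase, had 106, 104 and 104 CPM with the formula, 76.3, 83.1 and 78.7 CPM with the herb and 58.6, 61.7 and 59.9 CPM with vehicle, with 0.40 ± 0.038 on the log2 scale (SE; edgeR adjusted p = 6.42e-11). SLC6A9, a glycine transporter, had 48.8, 45.7 and 44.9 CPM with the formula, 31.4, 31.9 and 33.6 CPM with the herb and 41.1, 38.7 and 43.3 CPM with vehicle, so that vehicle lay between both, with 0.52 ± 0.051 on the log2 scale (SE; edgeR adjusted p = 7.34e-11). Palmul-tang at 500 µg/mL gave 101 ± 3.91 CPM of ASNS and 105 ± 3.16 CPM of PSAT1, close to the formula's 104 ± 1.27 and 106 ± 1.91 CPM (SD, n = 3), although this pair was not tested.

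Insulin-like growth factor binding proteins, which hold these growth factors outside the cell, had 3 of 7 genes higher and 1 lower (1 and 1 in the 57-library fit). IGFBP1, the stress- and fasting-induced member, had 50.1, 52.97 and 54.4 CPM with the formula, 33.2, 35.9 and 33.9 CPM with the herb and 22.3, 24.5 and 21.4 CPM with vehicle, highest with the formula, with 0.62 ± 0.058 on the log2 scale (SE; edgeR adjusted p = 3.52e-11) over the herb. IGFBP3 ran the other way at 438, 408 and 445 CPM with the formula and 546, 532 and 520.3 CPM with the herb, with -0.31 ± 0.045 on the log2 scale (SE; edgeR adjusted p = 1.11e-06). IGFBP4 was higher by 0.27. IGFBP6 was higher by 0.19, a call lost without formula replicate 3 (edgeR adjusted p = 0.188), herb replicate 1 (0.0865) or herb replicate 3 (0.0564).

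Many glycolysis and hypoxia genes were lower with the formula than with the herb, while most were above vehicle with the herb. Of 28 genes, 14 were lower and 1 higher (8 lower in the 57-library fit), with a median of -0.13, and 10 were lower after subtraction of the gauge. HK2, the inducible hexokinase, had 63.8, 64.0 and 63.8 CPM with the formula, 84.2, 87.0 and 84.3 CPM with the herb and 52.0, 55.0 and 55.8 CPM with vehicle. BNIP3, a mitophagy receptor induced by low oxygen, had 128, 123 and 128 CPM with the formula, 163, 168 and 162 CPM with the herb and 116, 122 and 116 CPM with vehicle. In both genes the 3 groups did not overlap and the formula lay between herb and vehicle, with -0.41 ± 0.048 on the log2 scale (SE; edgeR adjusted p = 5.47e-09) and -0.38 ± 0.038 on the log2 scale (SE; edgeR adjusted p = 1.57e-10) between formula and herb. The neuronal enolase ENO2 was lower at -0.35 and PFKFB3, which activates glycolysis through fructose 2,6-bisphosphate, at -0.25. Against vehicle the list had 12 higher and 1 lower with the formula and 19 higher and 1 lower with the herb. The shares higher over all genes were 20.7% and 17.9%.

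PPAR targets and fatty acid oxidation had 6 of 13 genes higher and 0 lower (2 and 0 in the 57-library fit, and 3 and 0 without formula replicate 3), with a median of 0.13. CPT1A, which admits fatty acids to mitochondria, had 48.4, 56.9 and 52.8 CPM with the formula, 37.0, 36.4 and 43.7 CPM with the herb and 36.0, 37.9 and 40.5 CPM with vehicle, higher with the formula than in either other group, with 0.44 ± 0.067 on the log2 scale (SE; edgeR adjusted p = 2.85e-06) over the herb. PLIN2, a coat protein of lipid droplets, had 124, 121 and 121 CPM with the formula, 104, 104 and 92.2 CPM with the herb and 58.0, 57.6 and 52.4 CPM with vehicle, with 0.28 ± 0.052 on the log2 scale (SE; edgeR adjusted p = 6.41e-05). ANGPTL4, which inhibits lipoprotein lipase, was higher by 0.35. HADHA of beta-oxidation was higher by 0.11, a call lost without formula replicate 3 (edgeR adjusted p = 0.0957) or herb replicate 2 (0.108).

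Of 24 cholesterol synthesis genes, 3 were higher and 5 lower (1 and 2 in the 57-library fit). INSIG1, which holds the sterol sensor in the endoplasmic reticulum, had 129, 128 and 136 CPM with the formula, 185, 174 and 173 CPM with the herb and 182, 177 and 172 CPM with vehicle, so that herb and vehicle overlapped and the formula lay below both, with -0.44 ± 0.040 on the log2 scale (SE; edgeR adjusted p = 1.59e-11). DHCR7, an enzyme of late cholesterol synthesis, was higher by 0.29. Fatty acid synthesis had 4 of 12 higher and 3 lower (1 and 1 in the 57-library fit, 2 and 2 without formula replicate 2 or herb replicate 3), with the desaturases FADS2 (0.28) and FADS1 (0.20) higher and ACLY, which makes cytosolic acetyl-CoA, lower at -0.15. Stearoyl-CoA desaturase, SCD, was lower at -0.14. Of 8 LXR targets 0 were higher and 2 lower (1 lower in the 57-library fit and without formula replicate 2 or 3), while the median of the 8 was 0.084. The share of LXR targets called was near the 23.4% called over all genes. ABCA1, the cholesterol exporter, had 62.7, 66.8 and 54.6 CPM with the formula, 83.6, 84.0 and 84.4 CPM with the herb and 49.6, 47.1 and 48.8 CPM with vehicle, with -0.45 ± 0.049 on the log2 scale (SE; edgeR adjusted p = 1.55e-09). MYLIP, a ubiquitin ligase, was lower at -0.29, a call lost without formula replicate 2 or 3 or herb replicate 3 (edgeR adjusted p from 0.055 to 0.0921).

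The aryl hydrocarbon receptor senses planar aromatic compounds, and of 10 of its targets 5 were higher and 0 lower with the formula (3 and 0 in the 57-library fit), DHRS3 and NQO1 among them. CYP1B1, a P450 that is its standard readout in many cells, had 172, 182 and 172 CPM with the formula, 115, 109 and 118 CPM with the herb and 123, 122 and 124 CPM with vehicle. The formula lay above vehicle and the herb below it, and they differed by 0.62 ± 0.039 on the log2 scale (SE; edgeR adjusted p = 9.80e-17). In the gauge, 2 of the 10 were called higher in the formula's low dose. After subtraction of the gauge, 2 of the 10 were called higher and 1 lower, and CYP1B1 differed by 0.48 ± 0.055 (SE; edgeR adjusted p = 2.36e-08). TIPARP, which feeds back on the receptor, was higher by 0.16, and was not called after subtraction of the gauge (edgeR adjusted p = 0.84). ALDH3A1, an aldehyde dehydrogenase at about 1 CPM, was higher by 0.91, a call lost without herb replicate 1 (edgeR adjusted p = 0.0541).

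Interferon-stimulated genes had 7 of 22 higher and 0 lower (3 and 0 in the 57-library fit), with a median of 0.15. MX1, an antiviral GTPase, had 16.6, 17.6 and 16.5 CPM with the formula, 11.3, 10.4 and 9.88 CPM with the herb and 12.7, 10.3 and 12.1 CPM with vehicle, with 0.69 ± 0.12 on the log2 scale (SE; edgeR adjusted p = 3.63e-05) over the herb. OAS2, which senses double-stranded RNA, was higher by 0.58, IRF9, a subunit of the interferon transcription complex, by 0.33 and the ubiquitin-like ISG15 by 0.33. NF-kB and inflammatory genes had 4 of 20 higher and 3 lower (1 and 1 in the 57-library fit), where IL1B led the rises. BIRC3, an inhibitor of apoptosis, had 9.07, 8.84 and 9.19 CPM with the formula, 12.3, 13.2 and 13.3 CPM with the herb and 15.3, 14.5 and 12.6 CPM with vehicle, lowest with the formula, with -0.52 ± 0.076 on the log2 scale (SE; edgeR adjusted p = 1.10e-06). NFKB2 was lower at -0.17. TNFAIP2 was higher by 0.22, a call lost without herb replicate 1 (edgeR adjusted p = 0.0513).

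Feedback and early genes of the MAPK pathway split evenly, with 4 of 24 higher and 4 lower (1 and 3 in the 57-library fit). DUSP10, a phosphatase of stress kinases, had 10.4, 10.8 and 8.16 CPM with the formula, 14.7, 14.7 and 12.9 CPM with the herb and 13.6, 13.3 and 13.0 CPM with vehicle, with -0.52 ± 0.080 on the log2 scale (SE; edgeR adjusted p = 2.57e-06). DUSP6, a phosphatase of ERK, was higher by 0.26 and DUSP5 lower at -0.27. PHLDA1 was higher by 0.17. Of 8 glucocorticoid targets, 3 were higher and 1 lower (1 and 0 in the 57-library fit). KLF9, a Krüppel-like factor, had 57.6, 58.3 and 59.3 CPM with the formula, 43.8, 41.3 and 44.0 CPM with the herb and 63.1, 64.9 and 58.8 CPM with vehicle, so that the herb lay below the other groups, with 0.44 ± 0.055 on the log2 scale (SE; edgeR adjusted p = 3.41e-08) between formula and herb. GLUL, glutamine synthetase, was higher by 0.18 and ERRFI1, an inhibitor of EGFR, lower at -0.26. TSC22D3 was higher by 0.20, a call lost without formula replicate 2 or 3 or herb replicate 2 or 3 (edgeR adjusted p from 0.0573 to 0.146).

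Of 19 heat shock genes 0 were higher and 1 lower in formula against herb (0 in the 57-library fit and without formula replicate 1 or herb replicate 1, 3 lower by DESeq2). It was CHORDC1, an HSP90 co-chaperone, at -0.20, a call lost without formula replicate 1 or 3 or herb replicate 1 or 3 (edgeR adjusted p from 0.0624 to 0.19). Of 19 genes of the unfolded protein response in the endoplasmic reticulum, 2 were higher and 5 lower (0 and 1 in the 57-library fit, 0 and 4 without formula replicate 1 or herb replicate 3). HSP90B1, the chaperone GRP94, was lower at -0.19, DNAJC3 at -0.20, SEL1L of the disposal pathway at -0.17 and the sensor ERN1 at -0.24. Of 25 lysosome genes, 1 was higher and 2 lower (0 in the 57-library fit). Cathepsin D, CTSD, had 348, 322 and 361 CPM with the formula, 283, 288 and 271 CPM with the herb and 305, 311 and 318 CPM with vehicle, with 0.29 ± 0.041 on the log2 scale (SE; edgeR adjusted p = 5.30e-07) over the herb. GPNMB was lower at -0.17, not called without formula replicate 3 (edgeR adjusted p = 0.0525), and GUSB, beta-glucuronidase, at -0.16, not called without formula replicate 1 or herb replicate 3 (0.0526 and 0.0707).

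Ribosomal and respiratory genes are where the gauge of the code moved as well. Of 32 cytosolic ribosomal protein genes, 8 were higher and 0 lower in formula against herb, with a median of 0.11. The share of them called was near the 23.4% called over all genes. In the gauge 0 were higher and 11 lower in the formula's low dose, with a median of -0.15. Of 27 nuclear genes of oxidative phosphorylation, 12 were higher and 0 lower, against 0 higher and 8 lower in the gauge. After subtraction of the gauge, whose own falls add to the difference, 20 and 21 were called higher. None of these ribosomal or nuclear respiratory genes was called between formula and herb in the 57-library fit. The counts also rested on single libraries. They were 2 and 2 higher without formula replicate 3, 5 and 6 without herb replicate 1, and 2 and 6 without herb replicate 3. Among the rule-chosen genes of both lists (RPS2, RPL3, RPL13, RPL15, NDUFB10, NDUFV1, UQCRC1 and UQCRQ), the log2 differences ran from 0.12 to 0.24, and RPS2, RPL3, RPL15, UQCRC1 and UQCRQ each missed the call without 1 or 2 of the libraries. RPL13, of the large subunit, was at 416, 425 and 474 CPM with the formula and 373, 408 and 355 CPM with the herb, a difference of 0.21 that was not called without formula replicate 3 or herb replicate 3 (edgeR adjusted p of 0.105 and 0.0676). NDUFB10, of respiratory complex I, had 86.0, 84.6 and 96.8 CPM with the formula and 77.6, 76.1 and 73.1 CPM with the herb, a difference of 0.24 ± 0.053 on the log2 scale (SE; edgeR adjusted p = 7.07e-04) that was called in all 6 fits that left out a library. Of 13 mitochondrially encoded genes, 6 were higher and 0 lower (0 in the 57-library fit, 2 without formula replicate 1 and 3 without herb replicate 1), beside the shares of mitochondrial counts given above. MT-ND5 missed the call without formula replicate 1, and MT-ATP6 without formula replicate 1 or herb replicate 1 or 2. MT-CO3, of cytochrome oxidase, had 5260, 4943 and 4692 CPM with the formula, 3841, 3907 and 4091 CPM with the herb and 8600, 7708 and 7683 CPM with vehicle, with 0.33 ± 0.065 on the log2 scale (SE; edgeR adjusted p = 1.37e-04), and was not called after subtraction of the gauge (edgeR adjusted p = 0.15).

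Of 9 tested genes of glial identity, 2 were higher and 1 lower (0 in the 57-library fit). NES, nestin of neural progenitors, had 8.39, 8.13 and 7.81 CPM with the formula, 5.08, 5.07 and 6.38 CPM with the herb and 4.70, 5.68 and 5.36 CPM with vehicle, with 0.55 ± 0.098 on the log2 scale (SE; edgeR adjusted p = 3.03e-05) over the herb. SLC1A3, a glutamate transporter, was higher by 0.20, a call lost without formula replicate 3 (edgeR adjusted p = 0.0751), and SLC1A2, another, at 0, 0.0924 and 0.106 CPM with the formula and 0.183, 0.160 and 0.336 CPM with the herb, was called lower on too few counts for a fold, a call lost without formula replicate 1 or herb replicate 3 (0.172 and 0.233). Of the markers of other cell types, TUBB3 was higher by 0.20 (not called without formula replicate 3, edgeR adjusted p = 0.0521) and the endothelial genes KDR and PECAM1 by 0.21 and 0.95, the last at about 1 CPM. No epithelial or leukocyte marker was called, with 3 and 2 tested.

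Relative to vehicle, 7017 genes (39.8%) were called with the formula, 3651 higher (20.7%) and 3366 lower (19.1%), and 6186 (35.1%) with the herb, 3152 higher (17.9%) and 3034 lower (17.2%). These contrasts share the vehicle libraries and their code, so their calls are not independent of each other, here and in the lists above. In this paragraph they are set side by side only for the genes that differ between formula and herb. Of the 4129 such genes, 1482 were called against vehicle with the formula only, 956 with the herb only and 606 with neither. A further 994 were called in the same direction with both, 690 of them further from vehicle with the formula and 304 with the herb. The last 91 were called in opposite directions. Among the genes described above, MT2A, DHRS3 and HMOX1 were further from vehicle with the herb. ID3, ANKRD1, CCN2, MKI67, ASNS and IGFBP1 were further from it with the formula, and THBS1 and THBD were called against vehicle with the formula but not with the herb.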

How the data were processed

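RNA from SW1783 cells was made into directional MGIEasy libraries and read on MGIseq as 100 bp pairs, per the labels' protocols. Per the submitters' processing notes, the authors' tools were RSEM 1.3.3, STAR 2.7.3a, FastQC 0.11.9 and Trim Galore 0.6.5, and the build was hg38/GRCh38; the annotation release and strand setting are not given in the sources used here. The deposited table holds RSEM expected counts for 60675 genes, of which 90.85% of values are whole (within 1e-09); 60 of its columns match this series by name and 219 were not used. Expected counts were rounded to whole numbers. Genes were filtered with filterByExpr, scaled by TMM and tested with edgeR 4.0.16 (R 4.3.3, quasi-likelihood, two-sided, 1 mean per group, 54 libraries), with Benjamini-Hochberg adjustment over 17610 genes and calls below 0.05 with no minimum fold. Printed CPM are TMM-scaled. Total counts per library ran from 19793383 to 37152367 in the fit. The fit was first run on simulated counts with the same spread for all groups, set wider than the real fit's common dispersion of 0.00153. It called 18 of 50 genes changed 1.25-fold, 46 of 50 changed 1.5-fold and 8 of 17000 unchanged genes. The wider spread of the formula libraries relative to other groups was not simulated. Without molecular identifiers, precision covers counting and the spread between libraries.

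Named genes are the 4 markers, the 8 largest rises and 8 largest falls among calls at a mean of 5 CPM or more with groups that do not overlap and a symbol that is not clone-based, and in each of 36 gene lists the called members with the smallest adjusted p, at most 4 per list; others are said to be chosen after their values were seen. The members, lists and tests were chosen with earlier results of these data known. Alternatives were DESeq2 1.42.0, its size factors in edgeR, no count filter, 57 libraries, only the groups compared, a replicate block, a length and GC correction, and leaving out each library. Promoter letters came from the RefSeq table of GRCh38.p14. A few named genes are not reported here, although gene list counts include them.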

Additional observations from a re-analysis of the deposited data

Results flagged for a closer look

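Of the 91 genes for which formula and herb were called against the shared vehicle libraries in opposite directions and also against each other, 6 are among the 135 named genes. SLC7A8, an amino acid exchanger, had 9.29, 7.79 and 7.78 CPM with the formula, 4.96, 4.11 and 4.30 CPM with the herb and 6.59, 5.33 and 7.33 CPM with vehicle, a difference of formula over herb of 0.88 ± 0.12 on the log2 scale (SE; edgeR adjusted p = 1.25e-07). CCN4 had 10.8, 11.3 and 10.7 CPM with the formula, 5.48, 6.70 and 6.05 CPM with the herb and 8.40, 9.11 and 9.39 CPM with vehicle, a difference of 0.86 ± 0.091 on the log2 scale (SE; edgeR adjusted p = 6.84e-10). CYP1B1, SLC6A9 and CTSD, whose levels are given above, differed by 0.62, 0.52 and 0.29. IGFBP4 had 413, 422 and 424 CPM with the formula, 340.5, 362 and 344 CPM with the herb and 372, 392 and 370.5 CPM with vehicle, a difference of 0.27. The calls of CTSD and IGFBP4 between formula and herb were lost in the 57-library fit. No group of formula, herb or vehicle has more than 3 libraries, so single libraries were not screened for distance from their group.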

How the results depend on the processing

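Formula against herb gave 4129 calls, and 4121 with DESeq2 size factors, 3939 with DESeq2 and 4258 with the replicate block. With the length and GC correction it gave 3896, of which only 3205 were among the 4129. Adding the herb's low dose gave 1125 and using only the groups compared 2669, and leaving out 1 library 2684 to 4297. The gauge pair gave 387 calls, against 595 with DESeq2, 723 without the count filter, 0 with 57 libraries (950 at an unadjusted p below 0.05), 180 with only its groups, 596 with length and GC correction and replicate block, and 37 to 645 without 1 library; these were 37, 143 and 645 without Cinnamomi Cortex replicate 3, 2 and 1 and 74 without Sibjeondaebo-tang low replicate 3. The share of its calls that were higher moved to 33.7% with the length and GC correction, against 22.5% without. The difference of both contrasts gave 2867 calls, 249 with 57 libraries, 1908 with only its groups and 1937 to 3223 without 1 library. Against vehicle, the formula gave 7017 calls, 4085 with 57 libraries and 6021 to 6660 without 1 library, and the herb 6186, 2927 and 5134 to 5505. Same-numbered libraries correlated in their deviations from the group means at -0.081 to 0.012 for formula and herb, -0.038 to 0.029 in the gauge, -0.030 to 0.0051 for formula and vehicle and 0.027 to 0.064 for herb and vehicle. All are under 0.1, so the numbers were not taken to pair the libraries, although herb and vehicle libraries each correlated best with their own number. The block gave 487 calls in the gauge, 3025 in the difference, 7120 for the formula and 6306 for the herb against vehicle. No called value reversed. Of the 135 named genes, 60 missed the call with 57 libraries, 9 with only the groups compared, 10 with the length and GC correction, 0 with the block and 3 without the filter, and 2 to 18 without 1 library, the most without formula replicate 3. At this depth and spread an uncalled gene may still differ by a small fold; with 3 libraries a group, unmatched doses and a code that goes with treatment, the comparison cannot separate extract from code.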
